A study of Mus musculus with 6 samples.

Results

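Messenger RNA of the ID family and of the receptors and SMADs that signal for bone morphogenetic proteins (BMPs) was examined in C2C12 cells, an established mouse line of muscle precursors (myoblasts). The group holds 9 genes taken by symbol and mapped through the GENCODE M21 annotation to the 14548 gene identifiers of the expression files. They are the ID genes *Id1*, *Id2*, *Id3* and *Id4*, the receptor genes *Bmpr1a*, *Acvr1* and *Bmpr2*, and the SMAD genes *Smad1* and *Smad5*. All 9 had a value, and 8 of them were among the 10837 genes tested, those with at least 1 FPKM (sequenced fragments on a gene, divided by its exon length and by the mapped fragments of the library) in at least 1 library.

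The study compared wild-type (WT) myoblasts with MSTN-KO myoblasts, in which CRISPR/Cas9 had been directed at exon 3 of *Mstn*, the gene of the muscle growth inhibitor myostatin. There were 3 libraries of each genotype, from cells kept in DMEM with 10% fetal bovine serum. The MSTN-KO cells were a single line, C11, so the effect of the knockout and any property of that line cannot be told apart. In the labels the strain of the WT libraries is C11 as well. Nothing in the sources says that the replicates were separate cultures, so the p-values measure the spread between these libraries, which may be technical.

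BMPs bind a pair of type I and a pair of type II receptors, which phosphorylate SMAD1 and SMAD5. With SMAD4 these proteins enter the nucleus and switch on target genes, of which the ID genes are the best known. ID proteins carry a helix-loop-helix but no DNA-binding region, so they capture E proteins and keep them from pairing with MyoD, and in myoblasts they hold back differentiation.

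*Mstn* RNA was near 0 in all 6 libraries, at up to 0.0399 FPKM in WT and up to 0.0586 FPKM in MSTN-KO, so it gives no test of the genotype labels. For the C11 cells themselves, the paper reported a disrupted *Mstn* target sequence and, by Western blot against WT cells, a lack of MSTN protein. The sum of all FPKM values lay at 723705 to 764524 for WT and was higher, at 856314 to 999579, for MSTN-KO. The median log2 difference of all tested genes was -0.00078, and it was -0.26 when all libraries were scaled to a sum of 1000000, which lowers the estimates below. The cells carried the myoblast genes that had a value, *Myod1*, *Myf5*, *Des*, *Pax7* and *Itga7*. Their summed level was 950 to 1356 FPKM in WT and 596 to 737 FPKM in MSTN-KO, with *Myod1*, *Des* and *Itga7* lower and *Pax7* higher. All 10 tested genes of differentiating muscle were lower in MSTN-KO by limma, beside 8.96% of all tested genes, and *Ckm* and *Myh3* passed the filter through the WT libraries alone. The whole list had sums of 1146, 1109 and 531 FPKM in WT replicates 1, 2 and 3 and 174, 221 and 236 FPKM in MSTN-KO. WT replicate 3 therefore stood between the other WT libraries and the MSTN-KO libraries in these genes. Fibroblast markers summed to 183 to 256 FPKM in WT and 321 to 386 FPKM in MSTN-KO, and of the 3 tested *Col3a1* was higher and *Dcn* was lower. Endothelial markers did not exceed 0.0581 FPKM in any library. Of the macrophage and leukocyte markers only *Cd68* passed the filter, without a call, while *Ptprc* and *Adgre1* had no value. *Fabp4* of the adipocyte markers was higher, having passed the filter through the MSTN-KO libraries alone, and *Runx2*, the only osteoblast marker tested, was not called. The part of these cell-state markers in the differences below was not tested. In bulk RNA, fewer cells of a type and less RNA per cell cannot be told apart.

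Of the 8 tested genes, *Id2*, *Bmpr1a*, *Bmpr2* and *Smad5* were lower in MSTN-KO (limma, Benjamini-Hochberg adjusted p under 0.05 over all tested genes) and 0 were higher, also at an unadjusted p under 0.05. Among all tested genes, 8.96% were lower and 8.78% were higher by the same test. None of the 8 was a differentially expressed gene (DEG) by an unadjusted p under 0.05 with a log2 fold change above 1 or below -1, while 3.51% of all tested genes were. In 5 of the 8, the 4 called genes and *Smad1*, every MSTN-KO library lay below every WT library, as it did in 18.1% of all tested genes. The estimates ranged from -0.88 for *Bmpr1a* to 0.10 for *Acvr1*, with a median of -0.48. Fold changes are differences of mean log2(FPKM + 1), MSTN-KO minus WT, a scale on which weakly expressed genes appear to change less than they do.

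**Figure D1:**
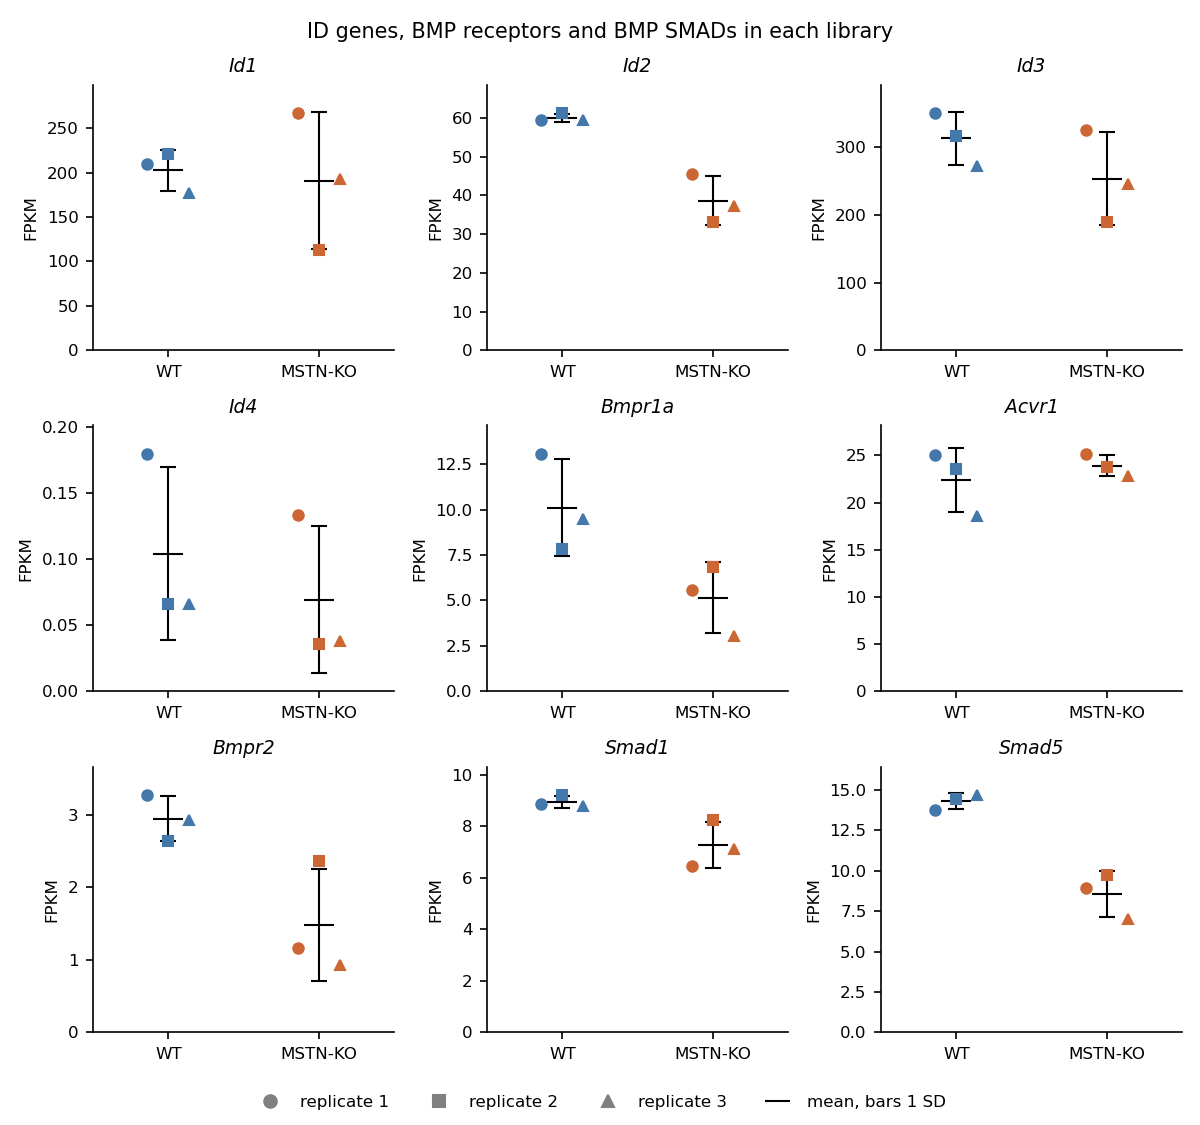
Level of each of the 9 genes (y axis, FPKM, from 0) in WT and MSTN-KO cells, with 1 point per library, the shape giving the replicate number, and a cross for the mean with bars of 1 SD. The points of the groups are apart for *Id2*, *Bmpr1a*, *Bmpr2*, *Smad1* and *Smad5*, and overlap for *Id1*, *Id3*, *Id4* and *Acvr1*.

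The regions before the transcription starts of the 4 genes called lower are shown because they moved the same way. They are the 250 bases up to the RefSeq start of each gene in GRCm38.p6, written 5′ to 3′ on the strand of the gene. Capitals mark GGCGCC, a GC-rich sequence that SMAD1 and SMAD5 are known to bind and that reads the same on both strands. The region of *Id2* is chr12:25096093-25096342 on the minus strand, that of *Bmpr1a* is chr14:34502547-34502796 on the minus strand, that of *Bmpr2* is chr1:59764029-59764278 on the plus strand and that of *Smad5*, the second of its 3 windows, is chr13:56702802-56703051 on the plus strand.
Id2: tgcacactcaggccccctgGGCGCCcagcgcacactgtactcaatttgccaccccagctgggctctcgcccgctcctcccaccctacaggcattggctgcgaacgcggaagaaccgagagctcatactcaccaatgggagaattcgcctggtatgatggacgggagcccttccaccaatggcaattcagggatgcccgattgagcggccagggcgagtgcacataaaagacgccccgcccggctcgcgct
Bmpr1a: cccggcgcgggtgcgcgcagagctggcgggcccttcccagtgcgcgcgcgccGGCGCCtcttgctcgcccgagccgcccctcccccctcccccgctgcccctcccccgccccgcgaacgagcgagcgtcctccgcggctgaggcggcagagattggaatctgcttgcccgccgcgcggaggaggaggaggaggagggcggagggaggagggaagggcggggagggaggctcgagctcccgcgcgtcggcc
Bmpr2: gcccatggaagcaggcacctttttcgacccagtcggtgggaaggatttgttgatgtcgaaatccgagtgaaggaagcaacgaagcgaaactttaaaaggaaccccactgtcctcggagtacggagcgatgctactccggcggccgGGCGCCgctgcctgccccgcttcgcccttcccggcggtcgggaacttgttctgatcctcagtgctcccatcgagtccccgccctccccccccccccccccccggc
Smad5: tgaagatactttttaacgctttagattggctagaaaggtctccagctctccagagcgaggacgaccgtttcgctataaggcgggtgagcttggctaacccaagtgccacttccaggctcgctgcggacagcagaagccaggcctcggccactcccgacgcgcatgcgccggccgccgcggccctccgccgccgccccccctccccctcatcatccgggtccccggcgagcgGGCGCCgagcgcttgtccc
The sequence GGCGCC began 231 bases before the start of *Id2*, 198 before that of *Bmpr1a* and 105 before that of *Bmpr2*. In the *Smad5* window shown it began 19 bases before the start. In the first *Smad5* window it lay at base 24 from the start onwards, and the third window held none. Windows of 300 bases, with 50 bases from the start onwards added, were searched for 8 of the 9 genes. Beside the 4 shown, only *Id4* held GGCGCC, 148 bases before its start, so the match was also present in a gene that was barely expressed. *Id3*, *Acvr1* and *Smad1* held none. Across all 32851 RefSeq windows, 11.9% held GGCGCC, and the share was 29.7% among the 10152 windows with a GC content as high as that of these genes (59.3 to 83.7%). The shorter SMAD box, CAGAC or GTCTG on the other strand, was found in *Id3*, 167 and 68 bases before the start, and in 1 window of *Smad5*, and no window of these genes held both sequences. It occurred in 49.6% of all windows. Matches are a description of the letters and no evidence of binding.

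**Figure D2:**
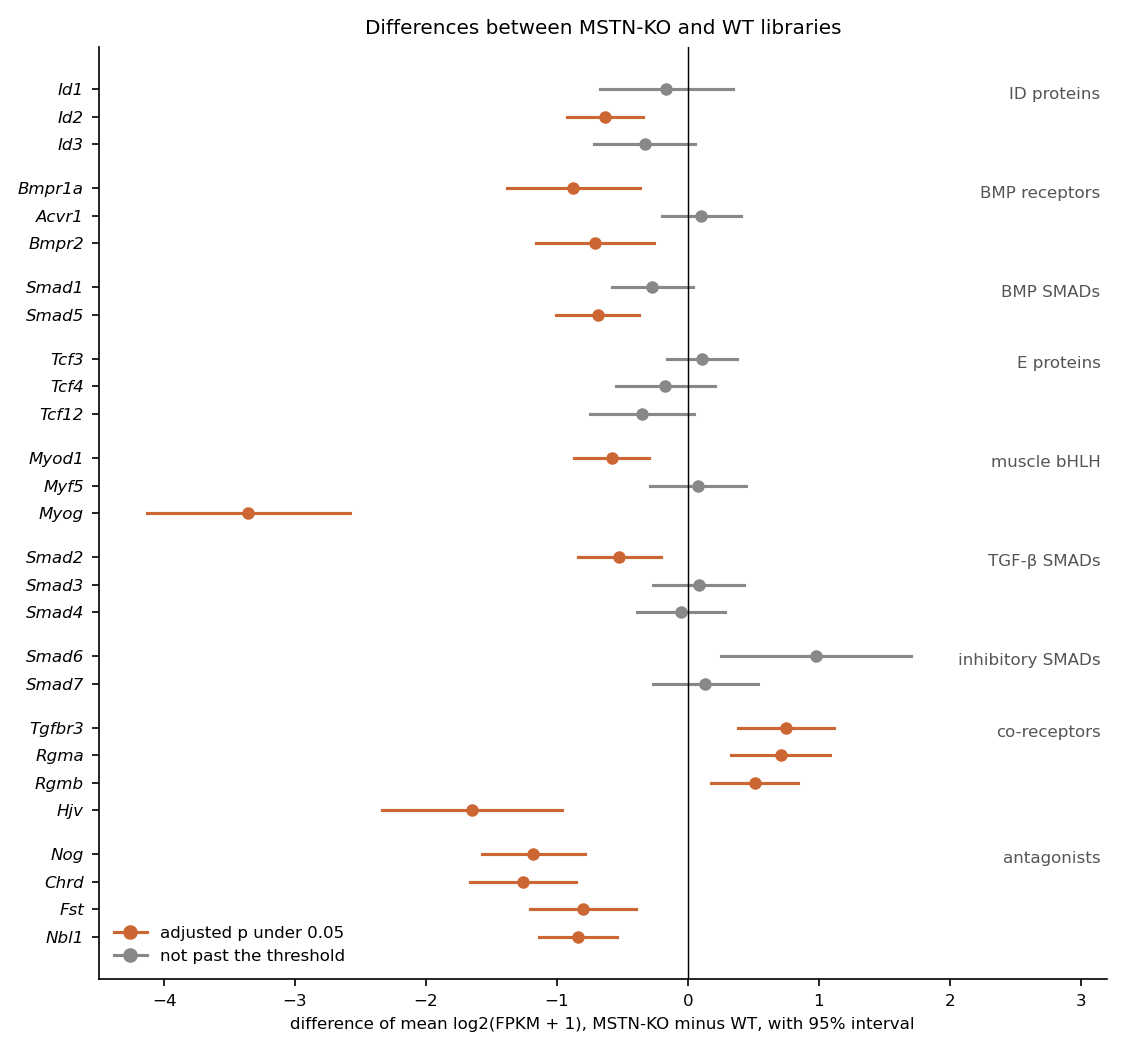
Difference of mean log2(FPKM + 1) between the 3 MSTN-KO and the 3 WT libraries (x axis), as points with 95% intervals, for the 8 tested genes and for related genes grouped by role. Orange marks an adjusted p under 0.05, and orange points lie left of 0 for *Id2*, *Bmpr1a*, *Bmpr2* and *Smad5* and right of 0 for 3 co-receptor genes.

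Of the 3 receptor genes, the type I receptor *Bmpr1a* and the type II receptor *Bmpr2* were lower in MSTN-KO, at 51.1% and 50.3% of the WT means, while the type I receptor *Acvr1* was not called.

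*Bmpr1a* (ENSMUSG00000021796, chromosome 14 of GRCm38, 34410734 to 34503341, minus strand) encodes ALK3, a type I receptor kinase. It had 13.1, 7.81 and 9.46 FPKM in WT and 5.56, 6.86 and 3.06 FPKM in MSTN-KO. The highest MSTN-KO library, replicate 2, lay just under the lowest WT library, also a replicate 2. The log2 difference was -0.88 (95% interval -1.38 to -0.37, adjusted p = 0.0216 by limma). It was -0.69 with an adjusted p of 0.105 without WT replicate 1, and -0.60 with an adjusted p of 0.0850 without MSTN-KO replicate 3, so the call rested on both of these libraries. The call was also lost with all libraries kept but no filter on low values (-0.88, adjusted p = 0.0915 by limma). Of its exon bases, 290 overlap the antisense gene Gm17110.

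*Bmpr2* (ENSMUSG00000067336, chromosome 1, 59763400 to 59879014, plus strand) encodes the type II receptor kinase that is dedicated to BMPs. It had 3.28, 2.64 and 2.93 FPKM in WT and 1.16, 2.37 and 0.928 FPKM in MSTN-KO. MSTN-KO replicates 1 and 3 were far below WT, and replicate 2 was close to the lowest WT library. The log2 difference of -0.71 (95% interval -1.16 to -0.26) had an adjusted p of 0.0313 by limma, and it missed the threshold in 9 of the 16 alternatives. After correction of each library for exon length and GC it was -0.48, with an adjusted p of 0.0523. Leaving out any library but MSTN-KO replicate 2 gave an adjusted p between 0.0607 and 0.118.

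Both called receptor genes are long and poor in GC, with an exon GC content of 41.3% for *Bmpr1a* and 41.0% for *Bmpr2*. The 662 tested genes with a GC content of 40 to 42% had a median log2 difference of -0.22, and 10.3% of them were lower by the test. In that class the MSTN-KO libraries departed from their own mean by a median of 0.05, 0.20 and -0.26 in replicates 1, 2 and 3. *Bmpr1a* departed by 0.14, 0.40 and -0.55 and *Bmpr2* by -0.16, 0.48 and -0.32, so both were highest in replicate 2 and lowest in replicate 3, as the class was. With the correction for length and GC given above, *Bmpr1a* kept its call and *Bmpr2* did not. Chromosomes 14 and 1 also had low medians, at -0.29 and -0.25, against which *Bmpr1a* was lower by a further -0.59 and *Bmpr2* by -0.46.

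*Acvr1* (ENSMUSG00000026836, chromosome 2, 58388644 to 58567157, minus strand) encodes ALK2, another type I receptor. It had 25.0, 23.6 and 18.6 FPKM in WT and 25.2, 23.8 and 22.9 FPKM in MSTN-KO. The groups overlapped, and WT replicate 3 was the lowest of the 6 libraries. The log2 difference was 0.10 (95% interval -0.20 to 0.40, adjusted p = 0.654 by limma), but -0.17 with libraries scaled to a common sum and -0.02 without WT replicate 3. Within a library, which no scaling can change, the ratio of *Acvr1* to *Bmpr1a* was 1.92, 3.02 and 1.97 in WT and 4.52, 3.47 and 7.48 in MSTN-KO. These ratios did not overlap between the groups, and nor did *Bmpr1a* alone. The GC content was 48.7% for *Acvr1* and 41.3% for *Bmpr1a*, and the part of GC content in the ratio was not tested. How often ratios of other gene pairs stay apart was not counted.

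Both SMAD genes were lower in every MSTN-KO library than in any WT library, and *Smad5* passed the test while *Smad1* did not. The difference between these effects was not tested.

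*Smad5* (ENSMUSG00000021540, chromosome 13, 56703010 to 56742377, plus strand) had 13.7, 14.4 and 14.7 FPKM in WT and 8.92, 9.74 and 6.98 FPKM in MSTN-KO. The WT libraries had an SD of 0.488 FPKM (n = 3), and the MSTN-KO mean was 59.8% of theirs. The log2 difference was -0.69, with a 95% interval of -1.01 to -0.37 and an adjusted p of 0.00674 by limma. Its GC content was 44.5%. MSTN-KO replicates 1, 2 and 3 departed from their mean by 0.07, 0.18 and -0.25, in the same order as the GC-poor class above. After correction for length and GC the difference was -0.58, with an adjusted p of 0.00349 by limma. Chromosome 13 had the lowest median of the 20 chromosomes ranked, at -0.34 over 410 genes, which leaves -0.35 for *Smad5*. The ranking was kept to chromosomes with many tested genes. The small RNA gene Gm27301 lies within 100 of its exon bases.

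*Smad1* (ENSMUSG00000031681, chromosome 8, 79338395 to 79399518, minus strand) had 8.85, 9.22 and 8.79 FPKM in WT and 6.48, 8.24 and 7.12 FPKM in MSTN-KO. The log2 difference was -0.27 (95% interval -0.58 to 0.04, adjusted p = 0.205 by limma). With libraries scaled to a common sum it was -0.54, with an adjusted p of 0.0344. The median difference of the tested genes on chromosome 8 was 0.12, which leaves -0.39 for *Smad1*, beside -0.35 for *Smad5*. The ratio of *Smad5* to *Smad1* within a library was 1.55, 1.57 and 1.67 in WT and 1.38, 1.18 and 0.980 in MSTN-KO, without overlap. This ratio is not corrected for the chromosome medians, and how often ratios of other gene pairs stay apart was not counted. The GC content was 51.5% for *Smad1* and 44.5% for *Smad5*, and its part in the ratio was not tested.

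Among the ID genes, the targets of the pathway, *Id3* had the highest level, *Id1* followed, *Id2* was lower and *Id4* was close to 0. *Id2* alone of the family passed the test.

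*Id2* (ENSMUSG00000020644, chromosome 12, 25093799 to 25097140, minus strand) had 59.5, 61.3 and 59.4 FPKM in WT replicates 1, 2 and 3 and 45.5, 33.1 and 37.4 FPKM in MSTN-KO. The WT libraries were close together, with an SD of 1.04 FPKM, and all 3 MSTN-KO libraries lay below them. The mean of 38.7 ± 6.32 FPKM in MSTN-KO (SD, n = 3) was 64.4% of the 60.1 FPKM in WT. The log2 difference was -0.63, with a 95% interval of -0.93 to -0.34 and an adjusted p of 0.00663 by limma. The median difference of the tested genes on chromosome 12 was -0.06, which leaves -0.58 for *Id2*. The paper also measured *Id2* by quantitative RT-PCR in WT and MSTN-KO cells. Among the genes so measured, it reported a significant decrease only for *Fos* and *Tgfb1*, and so not for *Id2*.

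*Id1* (ENSMUSG00000042745, chromosome 2, 152736251 to 152737410, plus strand) had 209, 221 and 177 FPKM in the WT replicates and 267, 113 and 193 FPKM in MSTN-KO. MSTN-KO replicate 1 was the highest of all 6 libraries and replicate 2 the lowest, so the groups overlapped. The log2 difference was -0.16 (95% interval -0.67 to 0.34, adjusted p = 0.666 by limma), and it was 0.17 without MSTN-KO replicate 2. The spread of *Id1* within the groups, a residual SD of 0.46 on the log2 scale, was larger than that of 97.3% of the tested genes, whose median was 0.18.

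*Id3* (ENSMUSG00000007872, chromosome 4, 136143497 to 136145755, plus strand) had 351, 317 and 273 FPKM in WT and 326, 189 and 246 FPKM in MSTN-KO. MSTN-KO replicate 1 lay above WT replicates 2 and 3. The log2 difference of -0.33 (95% interval -0.72 to 0.06) had an adjusted p of 0.218 by limma. With libraries scaled to a common sum it was -0.62, with an adjusted p of 0.0344.

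*Id4* (ENSMUSG00000021379, chromosome 13, 48261228 to 48266026, plus strand) stayed under the filter and was not tested. It had 0.180, 0.0664 and 0.0662 FPKM in WT and 0.134, 0.0360 and 0.0384 FPKM in MSTN-KO. Its exons share 82 and 171 bases with A330033J07Rik and Gm49291 on the opposite strand. Whether strand was used in the counting is not given in the sources used here.

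The 4 ID genes together summed to 620, 600 and 509 FPKM in WT and to 639, 336 and 477 FPKM in MSTN-KO, and these sums overlapped. *Id2* made up 9.59, 10.2 and 11.7% of the sum in WT and 7.13, 9.86 and 7.84% in MSTN-KO, so its share overlapped too, through MSTN-KO replicate 2. In that library *Id1* and *Id3* were low along with *Id2*.

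On the log2 scale MSTN-KO replicate 2 departed from the MSTN-KO mean by -0.67 for *Id1*, -0.39 for *Id3* and -0.21 for *Id2*. Replicate 1 departed by 0.57, 0.40 and 0.24. *Smad6* and *Smad7* encode the inhibitory SMADs, and *Atoh8* is a helix-loop-helix factor of the pathway. All 3 were lowest in the same library, at -1.06, -0.38 and -0.54. They are named after their values were seen. Of *Id1*, *Id2*, *Id3*, *Smad6*, *Smad7* and the 7 other tested responders, 9 of 12 were lowest in replicate 2 of the 3 MSTN-KO libraries, compared with 39.2% of all tested genes. This count was also made after the values were seen, and it includes the genes that prompted it, *Atoh8* among them. Of the 7 other responders alone, 4 were lowest in replicate 2 (*Atoh8*, *Msx1*, *Msx2* and *Dlx2*) and 3 were not (*Hey1*, *Dlx3* and *Runx2*). The smaller count still includes *Atoh8*, so it gives no separate check. *Bmpr1a* and *Bmpr2* had their highest MSTN-KO value in replicate 2. So did *Smad1* (0.16), *Smad5* (0.18) and the responder *Runx2* (0.20), while *Acvr1* was highest in replicate 1. The class of genes with a GC content of 40 to 42% departed there by a median of 0.20, so this was not particular to the receptor genes.

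**Figure D3:**
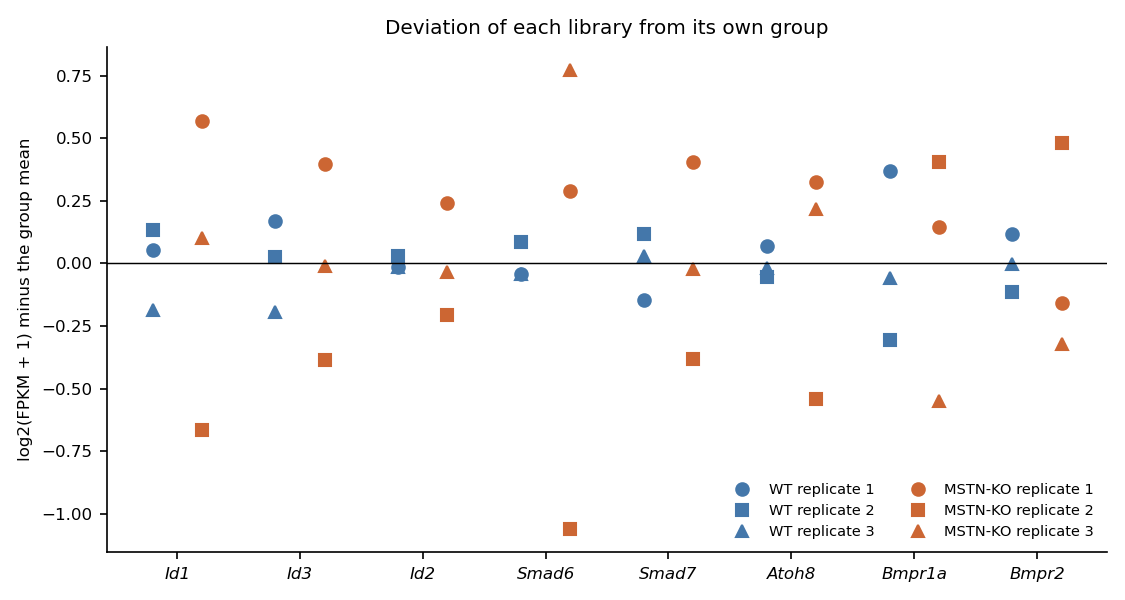
Departure of each library from the mean of its own group in log2(FPKM + 1) (y axis) for 3 ID genes, 3 other BMP-responding genes and 2 receptor genes, with WT in blue, MSTN-KO in orange and the shape giving the replicate number. MSTN-KO replicate 2 (orange squares) is the lowest point of its group for the 6 genes on the left and the highest for *Bmpr1a* and *Bmpr2*. Of the genes not drawn, the responders *Hey1*, *Dlx3* and *Runx2* were not lowest in replicate 2.

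*Smad6* had 4.37, 4.87 and 4.36 FPKM in WT and 12.3, 4.21 and 17.6 FPKM in MSTN-KO. Replicates 1 and 3 of MSTN-KO were far above all WT libraries and replicate 2 was below them. The log2 difference of 0.98 had an adjusted p of 0.0606 by limma, and without MSTN-KO replicate 2 it was 1.51 with an adjusted p of 4.57e-05. None of the 10 tested genes among the other SMADs and intracellular regulators was called by limma, and at an unadjusted p under 0.05 there were 2, *Smad6* and *Skil*. None of the 7 tested responders was called by limma, and 1, *Hey1*, had an unadjusted p under 0.05. The share of all tested genes with an unadjusted p under 0.05 was not counted. Counts at that threshold, here and elsewhere, therefore cannot be set against it.

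The 9 genes covered a wide range of levels. FPKM is per length, which allows an approximate comparison between genes. Their GC content ran from 41.0% for *Bmpr2* to 55.6% for *Id3*, and its part in the order was not tested. In WT the order was *Id3* (313 ± 39.2 FPKM, SD, n = 3), *Id1* (203 ± 23.0), *Id2* (60.1 ± 1.04), *Acvr1* (22.4 ± 3.36), *Smad5* (14.3 ± 0.488), *Bmpr1a* (10.1 ± 2.68), *Smad1* (8.95 ± 0.233), *Bmpr2* (2.95 ± 0.317) and *Id4* (0.104 ± 0.0655). Only *Bmpr1a* and *Smad1* overlapped as neighbours in that order. In MSTN-KO *Smad1* (7.28 ± 0.892 FPKM) stood above *Bmpr1a* (5.16 ± 1.93), and 3 pairs of neighbours overlapped, *Id3* with *Id1*, *Smad5* with *Smad1* and *Smad1* with *Bmpr1a*.

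The 3 E proteins, which ID proteins capture, were not called by limma, nor did any have an unadjusted p under 0.05. *Tcf3* had a log2 difference of 0.11, which was negative under quantile normalization (-0.02) and with a common sum (-0.18). *Tcf4* had -0.17, or 0.12 with the length and GC correction, and *Tcf12* had -0.35, with adjusted p-values of 0.525 and 0.207 by limma. The ratio of summed ID FPKM to summed E protein FPKM was 5.05, 5.70 and 5.03 in WT and 6.03, 2.89 and 4.26 in MSTN-KO. The MSTN-KO ratios spanned all those of WT.

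Of the muscle helix-loop-helix factors that pair with E proteins, *Myod1* and *Myog* were lower and *Myf5* was not called. *Myod1* had 167, 142 and 126 FPKM in WT and 93.8, 90.8 and 104 FPKM in MSTN-KO, a log2 difference of -0.58 (adjusted p = 0.00986 by limma). *Myog*, the factor of terminal differentiation, had 175, 148 and 47.3 FPKM in WT and 7.33, 10.2 and 11.6 FPKM in MSTN-KO. The log2 difference of *Myog* was -3.36, and that of *Myf5* was 0.08, with a negative value with a common sum (-0.19). *Myf6* was under the filter. The ratio of *Myod1* to *Id2* was 2.82, 2.31 and 2.12 in WT and 2.06, 2.74 and 2.77 in MSTN-KO, with overlap.

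Outside the cell, the genes around the BMP receptors moved in both directions. Of the 10 tested antagonists, 4 were lower and 0 were higher, and of the 7 tested other receptors and co-receptors, 3 were higher and 1 was lower, while 8.96% of all tested genes were lower and 8.78% were higher. The counts cannot be read as support for a direction, since *Nog*, *Chrd* and *Fst* passed the filter through the WT libraries alone and *Tgfbr3* through the MSTN-KO libraries alone.

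**Figure D4:**
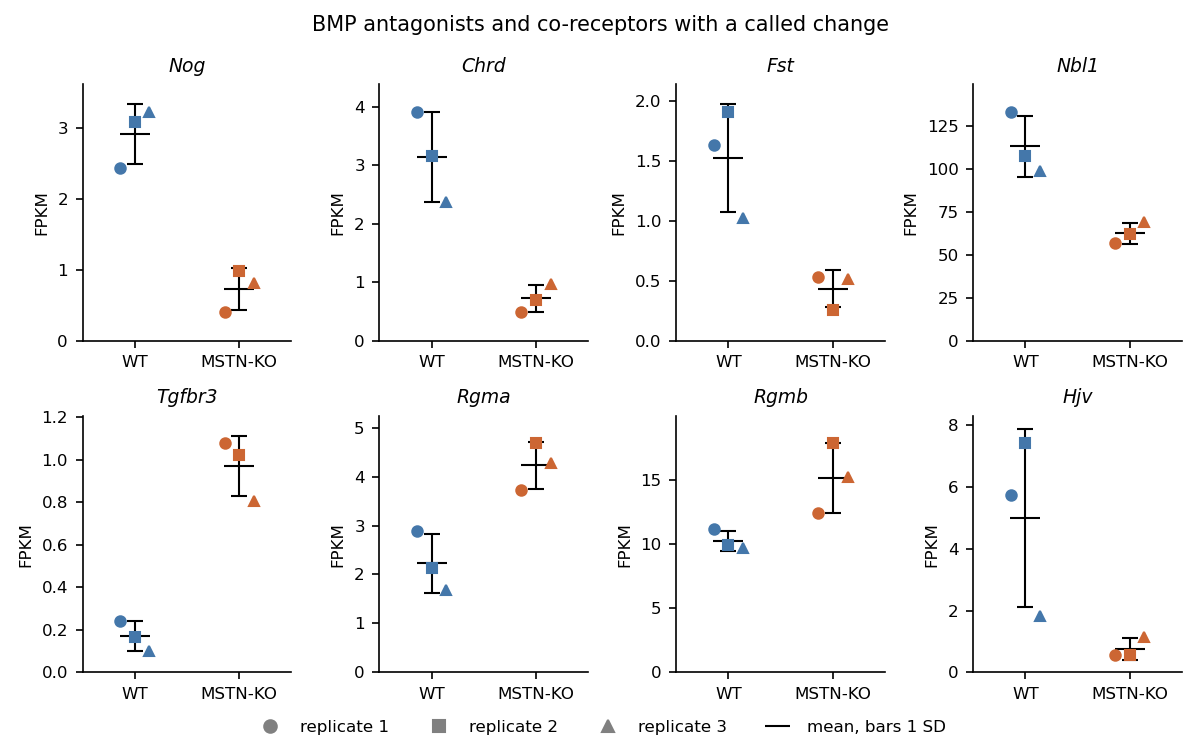
Level (y axis, FPKM, from 0) of the 4 antagonist genes and 4 co-receptor genes with an adjusted p under 0.05, with 1 point per library, the shape giving the replicate number, and a cross for the mean with bars of 1 SD. The MSTN-KO points lie below the WT points for the antagonists *Nog*, *Chrd*, *Fst* and *Nbl1* and for *Hjv*, and above them for *Tgfbr3*, *Rgma* and *Rgmb*.

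*Nog*, which encodes the BMP trap Noggin, had 2.44, 3.08 and 3.22 FPKM in WT and 0.408, 0.980 and 0.819 FPKM in MSTN-KO, a log2 difference of -1.18 (adjusted p = 0.000818 by limma). *Chrd*, for the trap Chordin, had 3.91, 3.16 and 2.38 FPKM in WT and 0.497, 0.707 and 0.970 FPKM in MSTN-KO, a log2 difference of -1.26 (adjusted p = 0.000641 by limma). Both were apart between the groups. *Nbl1*, a DAN family antagonist at a much higher level, had 133, 107 and 99.0 FPKM in WT and 56.7, 61.9 and 68.9 FPKM in MSTN-KO, a log2 difference of -0.84. *Fst*, for Follistatin, which binds activins, myostatin and some BMPs, had 1.64, 1.91 and 1.03 FPKM in WT and 0.529, 0.262 and 0.519 FPKM in MSTN-KO. Its log2 difference was -0.80 (adjusted p = 0.0115 by limma). It missed the threshold without WT replicate 1 (-0.76, adjusted p = 0.0538 by limma), without WT replicate 2 (-0.69, adjusted p = 0.0670) and with the replicate block and the length and GC correction together (-0.72, adjusted p = 0.0576). *Fst* lies on chromosome 13. The other 6 tested antagonists, *Grem1* among them at -0.38, were not called.

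*Tgfbr3*, for betaglycan, had 0.242, 0.166 and 0.103 FPKM in WT and 1.08, 1.02 and 0.807 FPKM in MSTN-KO, a log2 difference of 0.75 (adjusted p = 0.00921 by limma). The BMP co-receptor genes *Rgma* and *Rgmb* had log2 differences of 0.71 and 0.51. *Rgma* had 2.88, 2.13 and 1.68 FPKM in WT and 3.72, 4.68 and 4.28 FPKM in MSTN-KO, and *Rgmb* rose from 10.2 ± 0.794 to 15.1 ± 2.71 FPKM (SD, n = 3). Both lost the call with libraries scaled to a common sum, and *Rgmb* lost it in 8 of the 16 alternatives. *Hjv*, for the co-receptor hemojuvelin of the same family, had 5.76, 7.42 and 1.83 FPKM in WT and 0.560, 0.560 and 1.15 FPKM in MSTN-KO, a log2 difference of -1.65 (adjusted p = 0.00379 by limma). As in the markers of differentiating muscle, WT replicate 3 lay between the other WT libraries and MSTN-KO in *Hjv*. *Bmpr1b*, another type I receptor gene, did not pass the filter, at 0.0862, 0.0907 and 0.0767 FPKM in WT and 0 in the MSTN-KO libraries.

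Of 20 BMP and GDF ligand genes listed, 10 had a value and only *Bmp1* and *Gdf15* passed the filter. *Bmp1*, which despite its name encodes a protease, had a log2 difference of -0.35 and was not called. *Gdf15*, a stress-responsive member of the superfamily, was higher by 0.50 with an adjusted p of 0.0434 by limma, a call lost in 10 of the 16 alternatives. The ligands proper were low, as in *Bmp4*, at 0.169, 0.413 and 0.527 FPKM in WT and 0.787, 0.546 and 0.784 FPKM in MSTN-KO.

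In the branch of the pathway that serves TGF-β, activins and myostatin, *Smad2* was lower and the other 4 tested genes, *Smad3* among them, were not called. *Smad2* had 17.1, 16.6 and 15.3 FPKM in WT and 13.0, 11.0 and 9.44 FPKM in MSTN-KO, a log2 difference of -0.52 (adjusted p = 0.0257 by limma). The difference lay between -0.80 and -0.42 over the 16 alternatives, and its adjusted p missed the threshold in 4 of them, without the filter (-0.52), without WT replicate 1 (-0.49), without WT replicate 2 (-0.51) and without MSTN-KO replicate 3 (-0.42). *Smad3* had a difference of 0.08, or -0.19 with a common sum, and *Smad4*, shared by both branches, had -0.05. The sum of *Smad1* and *Smad5* over that of *Smad2* and *Smad3* was 0.581, 0.695 and 0.792 in WT and 0.517, 0.571 and 0.498 in MSTN-KO. The groups were apart in this ratio by a narrow margin, between WT replicate 1 and MSTN-KO replicate 2. How often other such ratios stay apart was not counted.

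Over all the other lists except the cell type markers, with E proteins and muscle factors included, 47 of 81 genes were tested. Of these, 8 were lower, 4 were higher and 35 were not called, beside 8.96% lower and 8.78% higher among all tested genes. The muscle factors *Myod1* and *Myog* are among the 8. The 8 and the 4 include the 4 genes above that passed the filter through 1 group alone.

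The 4 calls differed in how far they depended on the processing. *Id2* and *Smad5* were lower with an adjusted p under 0.05 in all 16 alternatives, *Bmpr1a* in 13 and *Bmpr2* in 7. Relative to the median of all tested genes, *Id2* ranged from -0.75 to -0.53 and *Smad5* from -0.78 to -0.58 over these settings. *Id1* and *Acvr1* were called in none of the alternatives, *Id3* in 2 and *Smad1* in 1.

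**Figure D5:**
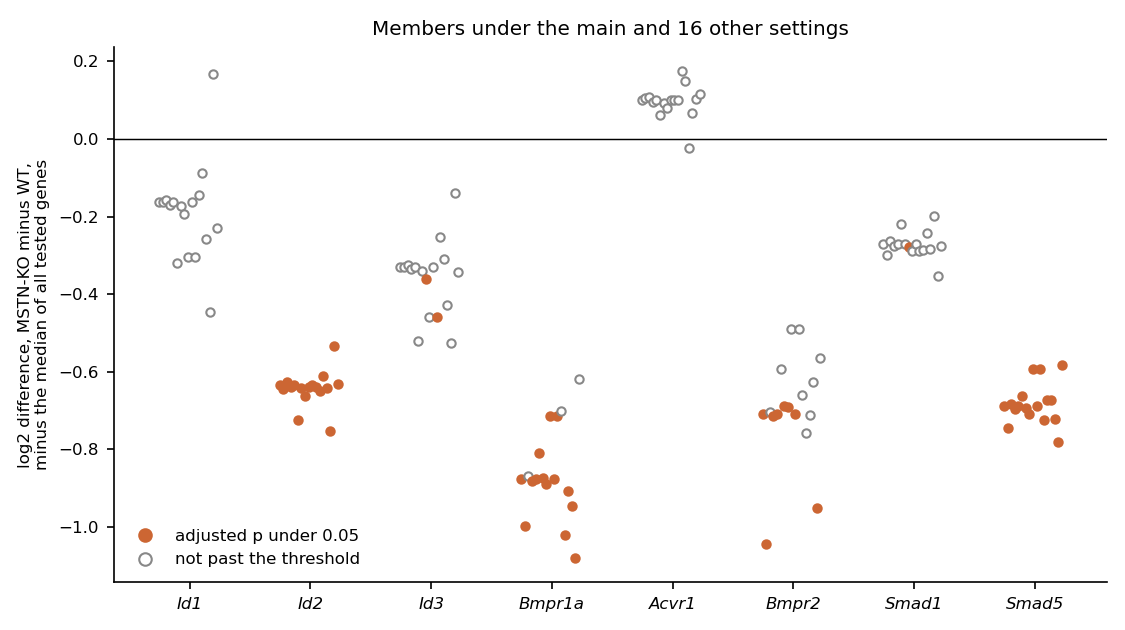
Log2 difference of each tested gene, MSTN-KO minus WT, less the median of all tested genes (y axis), under the settings of the report and 16 alternatives, with 1 point per setting. Filled orange points have an adjusted p under 0.05, and they make up all points of *Id2* and *Smad5*, most of *Bmpr1a* and fewer than the open points of *Bmpr2*.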

How the data were processed

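RNA-seq of 3 WT and 3 MSTN-KO libraries was grouped by the genotype in the labels. The authors deposited FPKM values, 1 file per library, and replicates were not pooled. The submitters' processing notes name Bowtie 0.12.2 and the mm8 build. The annotation, any use of strand and the number of fragments are not given in the sources used here, so no counting error could be stated. FPKM is divided by the total of a library, so a few strong genes lower all others.

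Symbols, positions and GC content came from GENCODE M21 on GRCm38 (14454 of 14548 identifiers had a symbol), which is a later build than that of the files, and promoter windows came from RefSeq (GRCm38.p6). *Hjv* was matched through an older symbol. Genes reaching 1 FPKM in any library were compared on log2(FPKM + 1) by limma 3.58.1 in R 4.3.3 (eBayes with trend), with Benjamini-Hochberg adjustment over all 10837 tested genes. Calling was tested on simulated data, in which 157 of 200 genes changed by 1 on the log2 scale were recovered, with 6 false calls. Smaller changes were not simulated. Two-sided exact permutation tests of mean FPKM cannot give less than p = 0.1 with 3 libraries against 3, the value reached by each gene whose groups did not overlap.

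The genes named were all 9 members, the called genes of each other list, all tested E proteins, muscle factors and *Smad2*, *Smad3* and *Smad4*, and the 3 nearest profiles of *Id1*, *Id2* and *Id3*. The values of 1 gene among these profiles are not reported here. Other genes named were chosen after their values were seen. The members and lists were chosen with earlier results of these data known. There were 16 alternatives, namely no filter, a filter on the mean, a pseudocount of 0.1, no trend, a length and GC correction (mgcv 1.9.3), a replicate block, that block together with the correction, quantile normalization, libraries scaled to a sum of 1000000 or by their percentile 75, and leaving out each of the 6 libraries.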

Additional observations from a re-analysis of the deposited data

How the results depend on the processing

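The number of fragments per library is unknown, so the precision of low genes such as *Id4* and *Bmpr2* could not be stated. Of the 8 tested genes, 4 were lower in the main setting, 2 without the filter on low values and 2 to 4 when 1 library was left out (2 without WT replicate 1 and 2 without MSTN-KO replicate 3). Leaving out the filter raised the number of genes tested to 14548. The 3 co-receptor genes that were higher became 1 with a sum of 1000000, and 1 to 3 when 1 library was left out (1 without WT replicate 2 and 1 without WT replicate 3). No gene of the 8 was called higher in any alternative, and the number of lower antagonists stayed within 1.5 times 4.

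Estimates changed sign for named genes in 18 cases over the alternatives, all of them of genes without a call, and in 398 cases kept both the sign and the side of the threshold. With a sum of 1000000 the values were -0.17 for *Acvr1*, -0.13 for *Smad7*, -0.0077 for *Atoh8*, -0.18 for *Tcf3*, -0.19 for *Myf5* and -0.19 for *Smad3*, beside a median over all tested genes of -0.26. *Tcf3* was -0.022 under quantile normalization, and *Tcf4* was 0.12 with the length and GC correction, with or without the block. Leaving out 1 library gave -0.45 to 0.17 for *Id1*, -0.021 to 0.18 for *Acvr1*, -0.20 to 0.027 for *Smad4*, -0.071 to 0.32 for *Smad7*, -0.064 to 0.23 for *Myf5* and -0.059 to 0.23 for *Smad3*. Beyond the scaling to a common sum, the causes were not tested. *Atoh8* passed the threshold only without MSTN-KO replicate 2, at 0.52.

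The count of all tested genes called lower or higher was 971 and 952 in the main setting, 2367 and 350 with a sum of 1000000, and 606 to 1251 and 423 to 1184 when 1 library was left out. Both groups have replicates 1 to 3 in the labels, and the departures of libraries of the same number correlated at -0.02, -0.13 and -0.14. These values were not compared with those of libraries of different numbers. Whether a number stands for shared handling is not known. With the replicate number as a block the counts were 1001 and 939, the same 4 of the 8 genes were lower, and *Smad6* passed the threshold (0.98, adjusted p = 0.00514 by limma). With the block and the length and GC correction *Id3* passed (-0.45, adjusted p = 0.0360 by limma) and *Bmpr2* did not (adjusted p = 0.0938).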

Other observations

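The genes whose profile over the 6 libraries was nearest to that of *Id1*, *Id2* and *Id3* were found by the root mean square difference of log2(FPKM + 1) after each profile had been centred on its own mean, among tested genes with a mean of at least 1 FPKM. Nearest to *Id2* were *Alkbh2*, *Bend6* and *Prl2c5*, at 0.0591, 0.0628 and 0.0684 log2 units over 6 libraries. *Alkbh2* encodes a DNA repair enzyme, and it had 7.02, 6.96 and 7.31 FPKM in WT and 5.01, 3.10 and 4.06 FPKM in MSTN-KO. As in *Id2*, replicate 1 was the highest and replicate 2 the lowest of its MSTN-KO libraries. Among the nearest to *Id1* were *Selp* (0.134), the gene of P-selectin, and *Eya1* (0.163). *Selp* had 3.59, 3.48 and 2.26 FPKM in WT and 3.70, 1.51 and 3.31 FPKM in MSTN-KO, so MSTN-KO replicate 2 was low there too. Nearest to *Id3* were *Cpt1c* (0.0955), *Tnfrsf21* (0.107) and *Isyna1* (0.121). *Isyna1*, for the enzyme that makes inositol phosphate from glucose phosphate, had 94.2, 79.2 and 73.3 FPKM in WT and 76.5, 57.5 and 69.8 FPKM in MSTN-KO. The log2 differences of the genes named for *Id1* and *Id3* lay between -0.29 and -0.13, and none of them was called.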
